A study of Vitis vinifera with 8 samples.

Results

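Described here are 121 grape berry genes whose transcripts were more abundant after 1 hour at 38 °C in green berries but showed little difference after the same treatment in ripening berries. They were chosen on log2(RPKM + 1), where RPKM is the reads of a gene per kilobase of its length, scaled to the size of the library. A member had a mean at least 1.5 higher at 38 °C than at 16 °C before véraison, no overlap between those 2 pairs of libraries, a mean of at least 5 RPKM at 38 °C, and a difference between -0.5 and 0.5 after véraison. Genes with a descriptive symbol were left out (2 of them, DHAR and WKRY, met the rest of the rule), which left 121 of the 25771 genes listed. All heat differences of the members before and after véraison were used in that choice and are given as a description.

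The berries came from L1 Pinot Meunier microvines, a dwarf grapevine that responds poorly to gibberellin and fruits in a pot. Seeds had been removed, and every library was made from one genotype grown at 16 °C. The 4 groups were pre-véraison berries (5 to 6 weeks after flowering) heated to 38 °C for 1 hour, pre-véraison berries at 16 °C, post-véraison berries (12 to 14 weeks) heated in the same way, and post-véraison berries at 16 °C, with 2 biological replicates each. The unheated berries were picked at 9 AM and the heated ones at 10 AM, so the temperature and the hour of sampling cannot be told apart. 

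Plant cells meet a sudden rise in temperature with heat stress transcription factors, which switch on genes for chaperones and other protective proteins within minutes. Véraison is the onset of ripening, when the berry softens, colours, loses chlorophyll and begins to store sugar, and much of its gene expression is replaced. Which of the heat responses of a green berry are still seen in a ripening one is the question these genes bear on. Of the 121 members, 97 carry a placeholder name (LOC and a number) in the reference table and 24 have no entry there and go by their numeric ID. No role is known from these names, so the genes are described by level, response, length and position. Of the 97 entries, 94 are protein-coding; LOC100247836 is a pseudogene, LOC100256282 a long non-coding RNA and LOC100255450 another RNA.

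Library sizes, worked out from the RPKM values, were 6047199 to 11243341 reads. HSP101, a chaperone that dissolves aggregated proteins, had 944 and 1075 RPKM in heated pre-véraison berries and 7.12 and 6.34 RPKM in unheated ones. After véraison it had 65.2 and 45.7 RPKM in heated berries and 4.74 and 6.45 RPKM in unheated ones. The anthocyanin gene UFGT, a marker of ripening, had 35.8 to 55.4 RPKM in the post-véraison libraries and at most 0.10 RPKM in the pre-véraison ones, so markers of treatment and stage went with the labels.

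Before véraison, the members lay 1.51 to 5.02 log2 units higher at 38 °C than at 16 °C, with a median of 2.08, where the median of the 16777 genes tested was -0.09. In RPKM the median ratio of means was 4.70, and 75 members were at least 4-fold higher. Of the 121, 64 lay at least 2 log2 units higher, 17 at least 3 and 5 at least 4. All 121 had a limma adjusted p under 0.05, a call made for 7.96% of genes in this direction, as their selection on this contrast would give. Their median mean level was 35.8 RPKM in heated and 6.47 RPKM in unheated pre-véraison berries, and 12.8 and 10.6 RPKM in heated and unheated post-véraison berries. In bulk RNA, more transcript per cell and more cells of a type that holds it cannot be told apart.

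**Figure D1:**
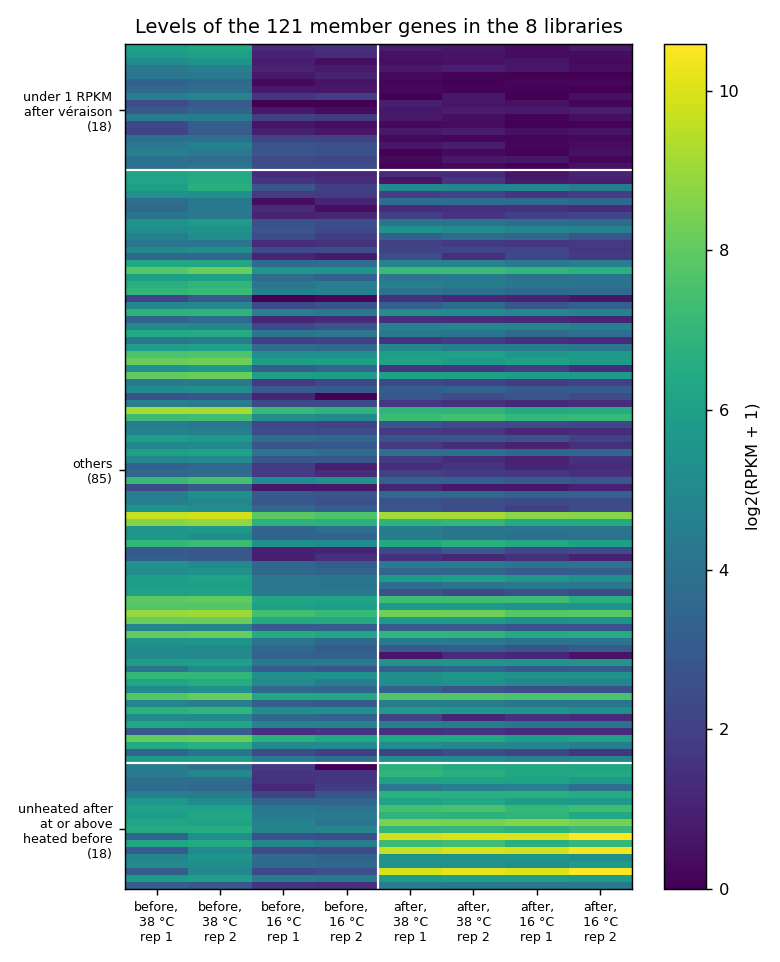
Each row is 1 of the 121 members and each column 1 of the 8 libraries; colour gives log2(RPKM + 1), and white lines part the stages and the 3 classes by level after véraison. Within a stage the rows change colour between 38 and 16 °C before véraison, and hardly at all after it.

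After véraison the members' differences between 38 and 16 °C were small but not centred on 0. They ran from -0.35 to 0.50 log2 units, with a median of 0.28 against 0.02 for all genes tested. The difference was positive in 104 members (86.0%) and negative in 17, where 55.9% of all genes tested, and 55.2% of the 15875 genes whose difference lay within the same window, were positive. In 68 members both heated post-véraison libraries lay above both unheated ones (23.9% of all genes tested), in 2 they lay below (16.4%), and in 51 the groups overlapped. The 2 that lay below were LOC100261255 and LOC100247460. The median ratio of means after véraison was 1.28, and the median member kept 12.1% of its log2 difference before véraison. The window of the rule had bounded the size of these differences, not their sign. The 324 genes that met the part of the rule on green berries had a median of 0.69 log2 units after véraison, above the window. The members are the part of them cut off at 0.5. Their counts by sign and overlap thus describe the choice and are no independent test.

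The error of 2 libraries a group limits what a small value can show. The standard error of a heat difference was 0.09 to 0.46 log2 units over the members (median 0.17). For each gene it was the same at both stages, as the spread was pooled over all groups. The 95% interval of the difference after véraison lay above 0 in 39 members, below 0 in LOC100247460 alone (an unadjusted p under 0.05 in this direction was found for 3.48% of genes tested) and across 0 in 81. It lay wholly inside the window of -0.5 to 0.5 in 19 members, and in 3 it reached 1: LOC100247836, LOC100255226 and 100256779, whose upper bound of 1.25 was the highest. By limma, 0 members were called higher after véraison at an adjusted p under 0.05, against 1.09% of genes tested, and 39 had an unadjusted p under 0.05, against 6.20%. The window of the rule was set on this same contrast, so these counts and intervals describe the members and are no independent test. With the reads recovered from the RPKM steps and limma voom, 4 were called: LOC100248135, LOC100251379, LOC100252768 and LOC100254725.

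The difference between stages was itself fitted, as the heat difference after véraison minus that before. It ran from -4.67 to -1.05 log2 units over the members and passed an adjusted p under 0.05 in 115 of them, against 3.53% of all genes tested in this direction, again as the choice of members would give. The 6 members that did not pass were LOC100259740, LOC100244140 and LOC100249526, neighbours on chromosome 5 described later, together with 100258874, LOC100251245 and LOC100245534. 

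The members are a slice of a larger set. Leaving the window aside, 324 genes met the part of the rule on berries before véraison. Of these 200 lay above the window after véraison, 3 lay below it and 121 within. No gap parted the 2 sets: 27 of these genes had a difference of 0.4 to 0.5 after véraison, 15 one of 0.5 to 0.6 and 24 one of 0.6 to 0.7, while 62 had one of 1.5 or more. Genes above the window had a median difference of 3.41 log2 units before véraison and 1.05 after it, against 2.08 and 0.28 for the members.

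**Figure D2:**
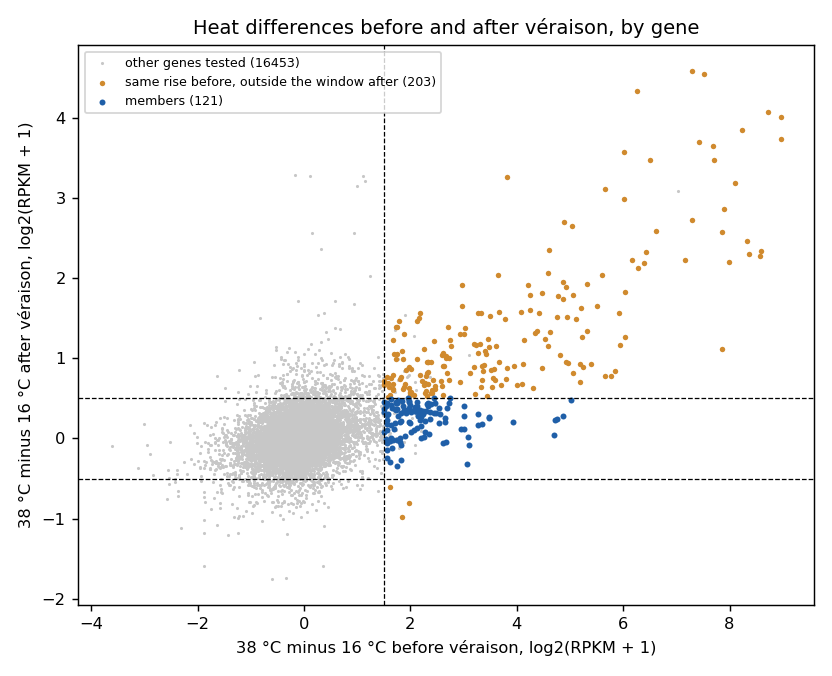
Each point is a gene tested; the x axis is the 38 minus 16 °C difference before véraison and the y axis that after véraison, both on log2(RPKM + 1), with dashed lines at 1.5 and at -0.5 and 0.5. The members (blue) pass into the genes above the window (orange) with no gap, and 104 of the 121 lie above 0 on the y axis.

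The members with the largest response before véraison stood next to each other. A stretch of chromosome 16, 18 genes long in the reference table with 16 of them in the files, held 8 members: LOC100247763, LOC100242632, LOC100259725, LOC100254616, LOC100244353, LOC100263042, LOC100252757 and LOC100247649. LOC100263042 had the largest difference of all members. Its level was 71.3 and 85.1 RPKM in heated and 1.53 and 1.32 RPKM in unheated pre-véraison berries, a difference of 5.02 ± 0.18 log2 units (SE, n = 2 a group). After véraison it had 1.42 and 1.43 RPKM in heated and 0.50 and 1.01 RPKM in unheated berries (13 and 14 reads, against 4 and 11), a difference of 0.48 ± 0.18. The heated green berries thus stood far above the other 6 libraries, and the post-véraison pairs, though they did not overlap, rested on few reads.

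LOC100254616 followed with 71.1 and 91.6 RPKM in heated and 1.99 and 1.58 RPKM in unheated pre-véraison berries. After véraison it had 0.49 and 2.02 RPKM in heated and 0.68 and 0.83 RPKM in unheated berries, which overlap. Among the members above 0 in unheated green berries, LOC100252757 had the largest ratio of means before véraison, 73.6, on 4 and 2 unheated reads, with 34.1 and 43.4 RPKM in heated and 0.74 and 0.32 RPKM in unheated berries. Its post-véraison values of 0.35 and 0.44 RPKM heated and 0.55 and 0.20 RPKM unheated also overlapped. LOC100242632 and LOC100259725 lay 4.75 and 4.73 log2 units higher in heated green berries, LOC100244353 3.48, LOC100247763 3.11 and LOC100247649 2.67. Over the 8 members the mean was 8.22 to 81.4 RPKM in heated and 0.32 to 1.79 RPKM in unheated green berries, and 0.06 to 1.42 and 0.11 to 0.76 RPKM in heated and unheated ripening ones.

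Of the other 8 measured genes of the stretch, 6 had the same kind of response and fell outside the members on the window alone. LOC100264915, LOC100249507, LOC100261260, LOC100251013, LOC100240781 and LOC100259623 lay 3.79 to 5.25 log2 units higher in heated green berries and 0.63 to 0.95 higher in heated ripening berries. Together 14 of 16 measured genes met the part of the rule on green berries. LOC100261410 had 1.99 and 2.71 RPKM in heated green berries, under the 5 RPKM asked for, and was listed at 0 in the other 6 libraries. LOC100251052 differed by -0.39 log2 units and was the one measured gene of the stretch that was not higher with heat in green berries. Genes of the stretch that met this part were 808 to 1189 bases long, against a median of 1500 for genes tested. How reads that match more than 1 gene were treated is not stated in the labels, and neighbours of like length may share reads, so the 14 may not be 14 separate measurements.

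**Figure D3:**
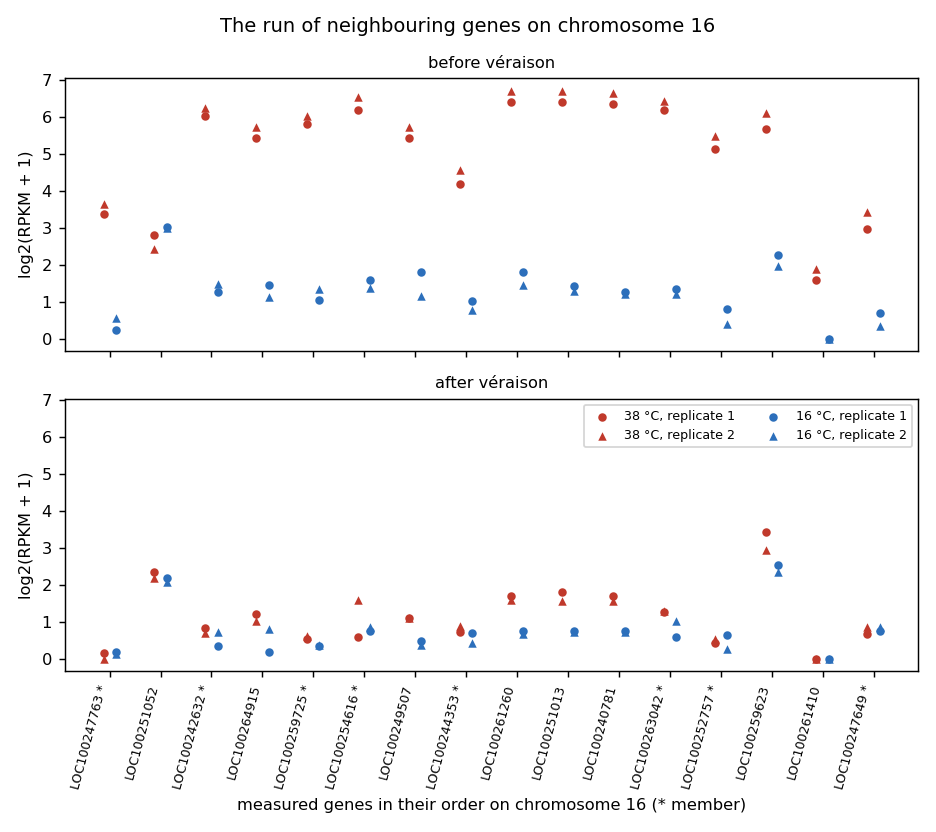
The x axis gives the 16 measured genes of the stretch in their order on chromosome 16 (members starred) and the y axis log2(RPKM + 1) per library, before véraison in the upper and after it in the lower panel. Heated libraries (red) stand above unheated ones (blue) in the upper panel in all genes but LOC100251052, and in the lower one the means of 38 and 16 °C differ by at most 0.95.

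Chromosome 16 as a whole held 14 members among 532 genes tested, the highest number of any chromosome; chromosome 14 followed with 8 among 909. A further pair on chromosome 16, LOC100267733 and LOC100257448, lay with 1 annotated gene between them. LOC100257448 had 16.9 and 18.5 RPKM in heated and 0.66 and 1.03 RPKM in unheated green berries. In ripening berries it had 0.21 and 0.07 RPKM after heat and was listed at 0 in both libraries without it. LOC100267733 had 11.3 and 12.8 RPKM in heated and 0.64 and 0.60 RPKM in unheated green berries, and at most 0.19 RPKM after véraison. Both were thus close to silent in ripening berries with or without heat.

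Among the 97 members with a place on a chromosome, 19 stood within 10 genes of another member, in 6 groups. Of the 19, 8 were those of the chromosome 16 stretch. The number that a set of this size would give by position alone was not worked out. LOC100260405 and LOC100265620, next to each other on chromosome 6, lay 1.70 and 2.12 log2 units higher in heated green berries. LOC100261369 and LOC100252768 on chromosome 14 lay 1.51 and 1.76 higher, and LOC100251245 and LOC100263312 on chromosome 13 lay 1.56 and 2.34 higher, with 6 genes between the pair on chromosome 13 that did not meet the rule. The members' median length was 1245 bases, against 1500 for all genes tested.

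Away from the chromosome 16 stretch, the largest response was that of LOC100261167. It had 63.7 and 101 RPKM in heated and 5.93 and 3.06 RPKM in unheated green berries, a difference of 3.93 ± 0.27 log2 units (SE, n = 2 a group). In ripening berries it had 30.6 and 28.4 RPKM after heat and 30.2 and 21.3 RPKM without, so its post-véraison pairs overlapped, and its level there lay between those of heated and unheated green berries. LOC100266263 was similar, with 12.9 and 18.0 RPKM in heated and 0.33 and 1.14 RPKM in unheated green berries. After véraison it had 12.7 and 13.0 RPKM heated and 12.1 and 10.6 RPKM unheated, close to its heated level in green berries. LOC100247399 took the opposite course: it had 39.6 and 39.3 RPKM in heated and 2.55 and 2.69 RPKM in unheated green berries, and remained at 3.02 and 3.40 RPKM heated and 2.32 and 2.77 RPKM unheated in ripening ones. LOC100267630 was listed at 0 in both unheated green libraries. Its mean of 5.73 RPKM in heated ones (4.59 and 6.86 RPKM) was 22.3-fold the floor of 3 reads over both unheated libraries.

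The 5 most abundant members in heated green berries lay 1.76 to 2.28 log2 units above their unheated level, around the members' median of 2.08. LOC100254725 had 824 and 919 RPKM in heated and 240 and 201 RPKM in unheated green berries. In ripening berries it had 557 and 573 RPKM after heat and 416 and 406 RPKM without, a difference of 0.46 ± 0.12 log2 units (SE, n = 2 a group), with no overlap at either stage. LOC100252623 had 595 and 573 RPKM in heated and 139 and 116 RPKM in unheated green berries, and 121 and 116 RPKM against 91.6 and 93.1 RPKM after véraison. LOC100252768 and LOC100251379 gave 0.48 and 0.47 log2 units after véraison and 1.76 and 1.98 before it. The fifth, 100246116, had 279 and 308 RPKM in heated and 58.3 and 61.1 RPKM in unheated green berries, but 67.9 and 57.5 RPKM in heated and 64.7 and 54.0 RPKM in unheated ripening berries, which overlap. In the other 4 of these 5 genes both heated ripening libraries lay above both unheated ones.

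The members lay at very different levels after véraison. By classes drawn up after the values had been seen, 18 members had under 1 RPKM in all 4 post-véraison libraries (10.2% of all genes tested), in 18 the unheated mean after véraison was at or above the heated mean before it (28.7%), and 85 lay between. The 18 low members had a median of 16.8 RPKM in heated and 1.07 RPKM in unheated green berries, and 0.41 and 0.24 RPKM in heated and unheated ripening berries. They had 0 to 14 reads in a post-véraison library, with a median of 3, so their values after véraison rest on few reads. LOC100263876, with 10 and 14 reads in heated and 2 and 6 in unheated ripening berries, was the low member with the largest difference after véraison, 0.45 log2 units. On log2(RPKM + 1) a ratio at such levels is pressed towards 0: the ratio of means after véraison was 6.27 in LOC100246444, whose difference was 0.22. That gene had 0.16 and 0.25 RPKM in heated ripening berries, against 0 and 0.07 RPKM in unheated ones.

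**Figure D4:**
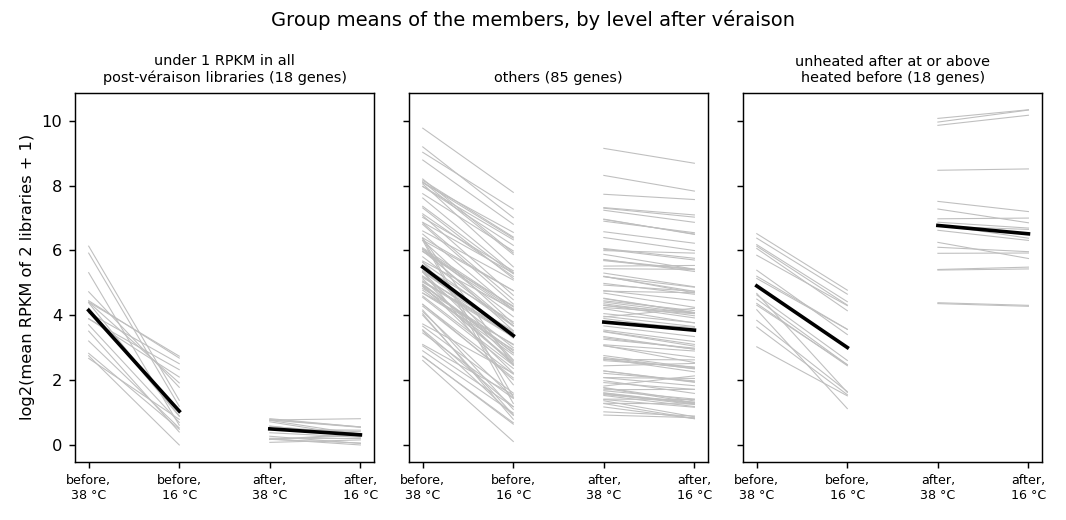
Grey lines are single members and black lines the class medians, on the y axis as log2 of the group mean RPKM plus 1, at 38 and 16 °C before véraison and at 38 and 16 °C after it (x axis). The 18 members on the left lie under 1 RPKM after véraison, the 85 in the middle mostly below their heated level before it, and the 18 on the right at or above their heated level before it.

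The 18 members of the high class had a median of 29.3 RPKM in heated and 7.34 RPKM in unheated green berries, and 108 and 90.6 RPKM in heated and unheated ripening berries; 10 of the 18 differences after véraison were positive. In the middle class 80 of 85 were positive. Among the high class, 100256779 had 20.0 and 14.0 RPKM in heated and 2.35 and 0 RPKM in unheated green berries, and 107 and 88.0 RPKM against 81.8 and 74.6 RPKM after véraison. LOC100243642 had 19.0 and 30.0 RPKM in heated and 2.02 and 2.13 RPKM in unheated green berries, and 121 and 98.2 RPKM against 78.3 and 85.8 RPKM after véraison. In both genes every ripening library lay above every green one, and both heated ripening libraries above both unheated ones. The long non-coding RNA LOC100256282 had 22.2 and 21.0 RPKM in heated and 3.28 and 5.82 RPKM in unheated green berries, and 108 and 104 RPKM against 105 and 93.4 RPKM after véraison, which overlap. The gene 100248294 had 76.0 and 66.7 RPKM in heated and 25.5 and 15.3 RPKM in unheated green berries, and its 363 and 344 RPKM after heat overlapped its 389 and 339 RPKM without heat in ripening berries.

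How the members' level without heat differed between stages was compared at 16 °C, as post-véraison minus pre-véraison. The median was 0.09 log2 units, against -0.52 for all genes tested. By limma at an adjusted p under 0.05, 49 members were higher in ripening berries (14.9% of genes tested) and 39 were lower (57.0%). With median-ratio scaling, which brings the median of all genes to 0.00, the members' median was 0.54, with 64 higher (32.1%) and 24 lower (33.5%). The unheated green libraries also entered the choice of members, which favours genes that are low there, so these counts describe the members and are no independent test. Without the calls, both ripening libraries lay above both green ones in 54 members (19.5%) and below them in 47 (66.4%).

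The members that fell furthest at 16 °C were LOC100260405, LOC100266912 and LOC100263876, by -2.47, -2.45 and -2.41 log2 units (limma adjusted p 1.1e-05, 2.4e-06 and 1.6e-06). LOC100266912 had 0.06 and 0.39 RPKM in ripening and 5.95 and 5.39 RPKM in green unheated berries. LOC100260405 had 1.26 and 0.46 RPKM in ripening and 9.33 and 8.73 RPKM in green unheated berries. LOC100263876 had 0.13 and 0.28 RPKM in ripening and 5.82 and 4.99 RPKM in green unheated berries. All 3 thus had a measurable level in unheated green berries and little in ripening ones. Between heated berries, 15 members were higher (17.2%) and 94 lower (53.0%) after véraison than before it. The members' median was -1.77 log2 units, against -0.45 for all genes. With median-ratio scaling these medians were -1.31 and -0.02. That scaling gave 19 members higher and 86 lower, where 5386 and 5765 of 16659 genes tested were called. Both 38 °C groups had entered the choice.

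Membership of the 3 genes most abundant after véraison rested on 1 library. LOC100244140, LOC100259740 and LOC100249526 stand within 6 genes on chromosome 5. LOC100259740 had 9.70 and 37.7 RPKM in replicates 1 and 2 of the heated green berries, against 5.35 and 4.83 RPKM in the unheated ones. LOC100244140 had 7.46 and 31.7 RPKM against 4.29 and 4.59 RPKM, and LOC100249526 had 7.63 and 30.0 RPKM against 4.19 and 4.95 RPKM. In all 3 genes replicate 2 stood about 4-fold above replicate 1, and the standard error of the heat difference was 0.44 to 0.46 log2 units, the highest of the members. Without that replicate the difference before véraison was 0.81, 0.64 and 0.64 log2 units, and none of the 3 remained a member.

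After véraison the same 3 genes were the most abundant of the members. LOC100249526 had 976 and 1172 RPKM in heated and 1046 and 1538 RPKM in unheated ripening berries, and was 7.84 log2 units higher after véraison than before it at 16 °C. LOC100259740 had 927 and 1059 RPKM heated and 1039 and 1529 RPKM unheated, and LOC100244140 had 833 and 1019 RPKM heated and 964 and 1334 RPKM unheated. The heated and unheated libraries overlapped in each. Only 4 genes tested had 20 RPKM or more in replicate 2 of the heated green berries, at least 3-fold the level of replicate 1. These 3 were among them. The 3 genes had like levels in every library and may share reads, so they may not be 3 separate measurements. Of 5 ripening markers, 4 were lower and TL3 higher in that replicate: replicates 1 and 2 had 0.09 and 0 RPKM of UFGT, 0.59 and 0.13 RPKM of the glutathione S-transferase gene GST4, 0.26 and 0.12 RPKM of GRIP22, 382 and 363 RPKM of MRIP1, and 164 and 199 RPKM of TL3.

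**Figure D5:**
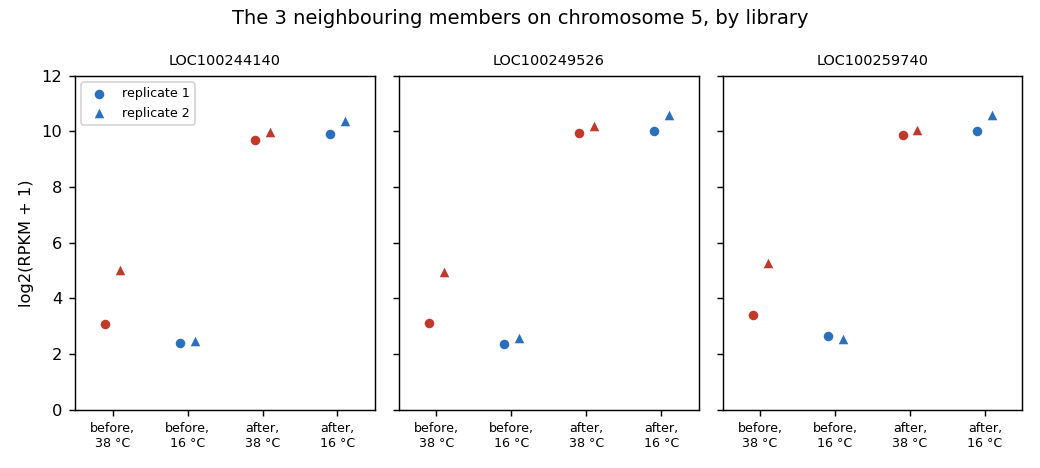
The y axis gives log2(RPKM + 1) of the 3 neighbouring members on chromosome 5 in each library (circles replicate 1, triangles replicate 2; red 38 °C, blue 16 °C), by stage and temperature on the x axis. Before véraison the heated replicate 2 stands apart from heated replicate 1, and after véraison all 4 libraries lie near 10.

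Replicate 2 of the heated green berries also ran higher in the members as a whole. It lay above replicate 1 in 89 of 121 members (73.6%), where it did so in 38.0% of all genes tested. Both of these libraries had entered the choice of members, so this share describes the members and is no independent test. In 6 members the heated replicates were at least 2-fold apart. HSP101 was also higher in replicate 2. Without that library 21 of the 121 members were lost and 13 other genes came in. Leaving out any other single library lost 3 to 20 members, with 20 lost without unheated post-véraison replicate 1.

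A pair of members may be 1 measurement. LOC100246754 and 100250882 both had a recovered length of 1115 bases and differed by at most 0.04 log2 units in any library. LOC100246754 had 27.7 and 31.6 RPKM in heated and 6.08 and 6.24 RPKM in unheated green berries, and 100250882 had 27.7 and 31.9 RPKM against 5.93 and 6.36 RPKM. Reads of a near-identical copy may have been counted for both, and the values of the pair are uncertain for that reason. LOC100260026 likewise differed by at most 0.10 log2 units in any library from 100258336, which is not a member. The members 100246974 and 100245610 (1824 and 1830 bases) were close too, with 23.2 and 21.6 RPKM against 23.9 and 22.4 RPKM in heated green berries.

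Just inside the bound of 1.5 before véraison were LOC100249626, LOC100261369 and LOC100245534 with a difference of 1.51 each. Just outside were LOC100242646 and LOC100258356, each with 1.49, and LOC100240929 between these and 1.5. At the upper bound after véraison LOC100248212, LOC100247836 and LOC100254231 lay inside at 0.50 each, and LOC100244557, LOC100242144 and LOC100264245 outside at 0.52, 0.52 and 0.53. At the lower bound the members nearest to it were LOC100259740, LOC100261255 and LOC100244140 at -0.35, -0.32 and -0.30, and the genes beyond it were LOC100267772, LOC100248102 and 100245890 at -0.61, -0.80 and -0.98. For the level of 5 RPKM in heated green berries, LOC100247836, LOC100253577 and LOC100251262 lay inside at 5.09, 5.36 and 5.63 RPKM, and LOC100242729, LOC100264804 and LOC100243648 outside at 4.76, 4.52 and 4.49 RPKM.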

How the data were processed

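The authors sequenced messenger RNA of deseeded berries (8 single-end libraries, 2 for each of 4 groups). The values are RPKM as deposited by the authors, 1 per gene and library. Per the submitters' processing notes, Bowtie 0.12.7 and TopHat 1.2.0 were used. The build, the annotation, the counting tool and the treatment of multiply matched reads were not stated there. Members and lists were chosen with earlier results of these data known.

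Values were taken as log2(RPKM + 1), which understates changes of low genes. Genes that reached 1 RPKM in 2 or more libraries (16777, all 121 members among them, of which 111 would also pass without the heated pre-véraison libraries) were fitted with limma 3.58.1 in R 4.3.3 (4 group means, trend, two-sided, Benjamini-Hochberg over all genes tested). Whole reads were recovered from the RPKM steps for 20845 of 20845 genes above 0 in at least 3 libraries (100%, tolerance 0.0005), and lengths with them, up to a common divisor. For a gene of 1541 bases, 3 reads make 0.17 to 0.32 RPKM. The recovery and fit were tested on simulated data. P-values rest on a spread estimated per gene and pooled over the biological replicates of all 4 groups (4 residual degrees of freedom). It was moderated towards the trend of all genes tested (6.06 prior degrees of freedom). A standard error, interval or p-value at either stage thus also carries the spread of the other stage.

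Names and gene order came from the reference table (assembly ASM3070453v1), which 18647 of 25771 IDs matched. Named were the 12 members with the largest difference before véraison, the 5 highest in heated pre-véraison berries, the 5 highest after véraison, the 3 with the largest stage difference at 16 °C each way and 3 genes on either side of each threshold; others were chosen after their values were seen. The word lists found no gene descriptions. Promoter and protein sequences were not analysed here. Replicate numbers were not treated as pairs in the main fit. The correlation of same-numbered deviations was 0.03 before and -0.02 after véraison, over 2 numbers. With so few numbers it cannot show whether same-numbered samples were paired. Other steps used scipy 1.17.1, pandas 2.3.3 and numpy 2.4.6 under Python 3.11.15, with matplotlib 3.10.9 for figures.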

Additional observations from a re-analysis of the deposited data

Results flagged for a closer look

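In 115 of the 121 members the heat difference after véraison was smaller than that before it by the interaction of stage and temperature in limma (adjusted p under 0.05). Both heat differences had been used to choose the members, so this count describes the choice.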

How the results depend on the processing

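The number of genes that met the rule followed its bounds. It was 275 with a difference before véraison of at least 1 in place of 1.5, 64 with at least 2, 50 with a window after véraison of 0.25 and 218 with a window of 1. With pseudocounts of 0.1 and 5 it was 122 and 112, of which 98 and 77 were among the 121, and with median-ratio scaling 126 (114 shared) and with quantile normalization 142 (111 shared). Leaving out 1 library at a time gave 110 to 149. Members called higher after véraison numbered 0 in the fit reported, 4 with limma voom on recovered reads, and 0 to 2 when 1 library was left out (LOC100248135 and LOC100252768 without unheated pre-véraison replicate 1, LOC100248135 without its replicate 2, and LOC100266097 without unheated post-véraison replicate 1). Members called lower in ripening berries at 16 °C numbered 24 with median-ratio scaling and 22 with quantile normalization, against 39. The cause was not tested. Members with a positive difference after véraison numbered 94 to 105 over all settings. With the replicate number as a block, 121 members were called before véraison, 0 after it and 109 in the interaction, and it moved no count by over 1.5 times. Promoter motif and protein similarity alternatives were not run. Genes with few reads after véraison limit what the difference there can show.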
